A study of Drosophila melanogaster with 30 samples.

Results

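Overexpression of Bchs in neurons was compared with its driver control by RNA sequencing of adult Drosophila melanogaster heads. The comparison takes in 10 of the 30 libraries of the series, chosen by their labels: 5 libraries labelled neuronal Bchs overexpression and 5 labelled nSyb-Gal4 control. Flies of the overexpression group had the genotype nSyb-Gal4/UAS-bchs::HA, and flies of the control group nSyb-Gal4/+, so both groups carried the driver and differed, per the labels, in the transgene. Heads were taken 22 to 31 h after eclosion in every group. Another group of 5 libraries, UAS-bchs::HA/+, carries the transgene without a driver. It entered the filter on low counts, the scaling and the estimate of the spread, and its levels are given beside some results. The driver takes its promoter from nSyb, a synaptic vesicle gene of neurons, while the RNA is that of whole heads, in which neurons, glia, eye, muscle, fat body and cuticle are mixed. The labels give no sex, number of heads per sample or genetic background, and do not say whether the 5 samples of a group came from separate crosses. P-values therefore set the difference between groups against the spread between these samples, estimated over all 15 libraries of the 3 groups.

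Bchs (Blue cheese) is the fly counterpart of human WDFY3, also called ALFY. It is a very large BEACH domain protein that links ubiquitinated protein aggregates to the autophagy machinery, and loss of its function in flies leads to neurodegeneration. In the Gal4/UAS system a transgene is transcribed where the driver makes the Gal4 activator, so that the protein is raised in neurons while the other cells of the head carry the transgene silent.

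All 8 neuronal markers, elav and brp among them, were tested in these heads, and none was called changed at an adjusted p under 0.05, a threshold that 16.5% of all genes tested passed. Their summed level was 4010 to 4758 CPM in the overexpression libraries and 3792 to 4726 CPM in the controls, where CPM is counts per 1000000 counts in genes, scaled with edgeR's TMM factors. Each of the 10 libraries held between 44017794 and 60266009 counts assigned to genes. One control library stood apart: the 13 transcripts of the mitochondrial genome summed to 13706 CPM in driver control 5 and to between 35764 and 39885 CPM in the other 4 controls. Of the markers of other tissues, 5 of 6 muscle, 3 of 7 fat body, 3 of 9 glial and 1 of 6 photoreceptor genes were called lower. In RNA from whole heads, fewer cells of a type and less RNA per cell cannot be told apart. None of 7 hemocyte genes was called in either direction. The same mitochondrial sum was 7142 to 15745 CPM in UAS-bchs::HA/+ libraries 1 to 4 and 39603 CPM in library 5. That group enters the fit through the filter on low counts, the scaling and the spread. It is otherwise given as levels, apart from a fold change of ncd.

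The bchs gene itself (FBgn0043362, chromosome arm 2L, 5907169 to 5922776 in build BDGP6) checks the labels. Its level was 405, 577, 424, 304 and 429 CPM in overexpression libraries 1 to 5 and 98.2, 105, 128, 82.9 and 94.6 CPM in driver controls 1 to 5. Every overexpression library lay above every control, with library 2 highest and library 4 lowest. The means were 428 ± 97.6 and 102 ± 16.6 CPM (SD, n = 5 each), a log2 fold change of 2.07 ± 0.15 (standard error) with an adjusted p of 2.41e-07 in edgeR's quasi-likelihood test, Benjamini-Hochberg adjusted over all genes tested. The two-sided exact permutation test of 5 against 5 libraries gave 0.00794, the smallest p it can give. Counts do not separate the transgene from the endogenous gene, and UAS-bchs::HA/+ heads stood at 91.3 ± 10.1 CPM. The driver's own gene, nSyb, stood at 1556 ± 59.4 against 1506 ± 106 CPM, with a log2 fold change of 0.05 and an adjusted p of 0.743. The white gene w, an eye pigment transporter that commonly serves as the marker of fly transgenes, was 39.2 ± 3.27 CPM in overexpression and 15.97 ± 0.812 CPM in driver control heads, a log2 fold change of 1.30 ± 0.05 with an adjusted p of 6.7e-11. Levels of w lay apart in all 3 genotypes, and UAS-bchs::HA/+ heads were lowest at 6.01 ± 0.0892 CPM.

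Of 10778 genes tested, 1782 were called changed at an adjusted p under 0.05, which is 16.5% of them and the background for every count below. They divided into 883 higher genes (8.19%) and 899 lower genes (8.34%). Genes given below with a fold change and no p passed this threshold. The higher genes moved further: 223 of them rose by at least 2-fold and 40 by at least 8-fold, against 65 and 6 of the lower genes. The median log2 fold change was 0.48 among higher genes, -0.32 among lower genes and -0.00 among all genes tested. In 1214 of the called genes all 5 libraries of one group lay on one side of all 5 of the other; over all genes tested 13.3% did so.

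**Figure D1:**
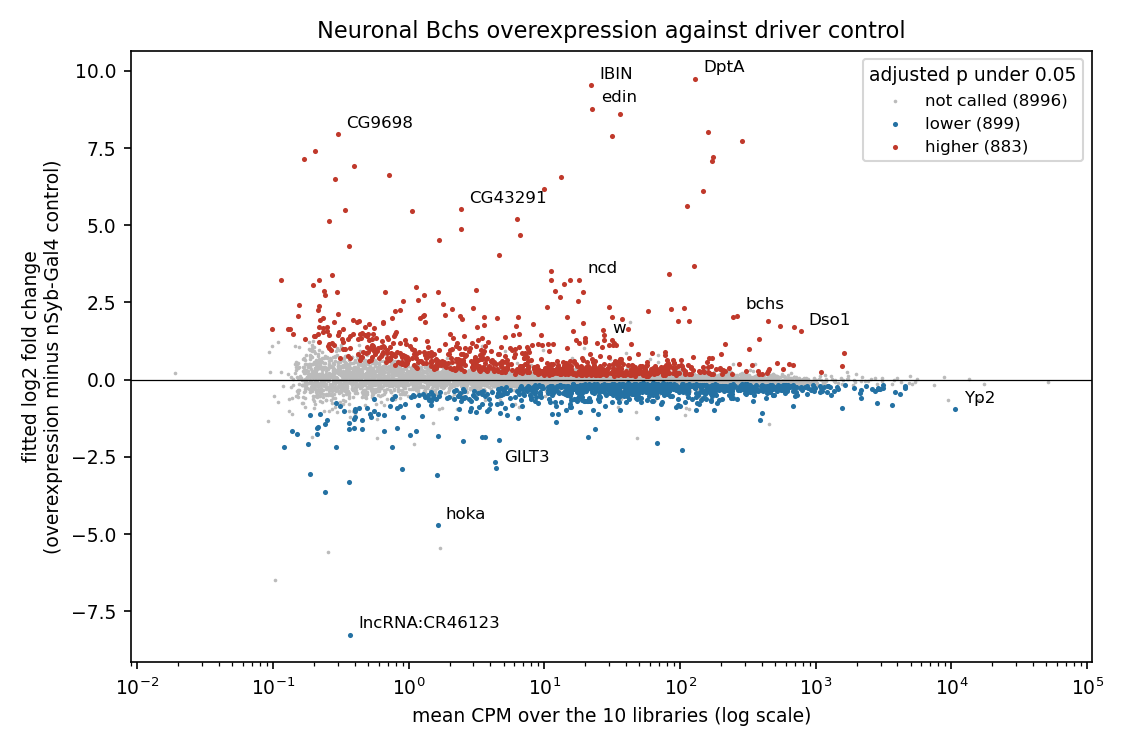
Fitted log2 fold change (overexpression minus nSyb-Gal4 control) of each of the 10778 genes tested against its mean CPM over the 10 libraries on a log scale; each point is a gene, coloured by its call. More higher than lower genes lie at 8-fold or beyond (40 against 6). DptA is at 9.75 and hoka at -4.71; the called gene lowest on the plot, lncRNA:CR46123, had no count in overexpression heads, so its fitted value depends on the prior count.

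The strongest rise was in genes of the humoral immune response. In flies, the Imd pathway, through the transcription factor Relish, and the Toll pathway, through Dif and Dorsal, switch on genes of secreted antimicrobial peptides, chiefly in the fat body. Of 14 antimicrobial peptide genes tested, 13 were called higher, with a median log2 fold change of 6.82 over the 14. The diptericin gene DptA, a standard readout of the Imd pathway, stood at 176, 4.26, 0.940, 757 and 347 CPM in overexpression libraries 1 to 5 and at 0.617, 0.261, 0.334, 0.0720 and 0.250 CPM in driver controls 1 to 5. Library 4, the lowest of the group in bchs, was highest and library 3 lowest, and even library 3 lay above every driver control. UAS-bchs::HA/+ libraries 1 to 5 held 2.60, 1.99, 0.300, 0.267 and 0.781 CPM, so library 3 lay within the range of that genotype. The log2 fold change of DptA was 9.75 ± 1.81 with an adjusted p of 0.0029 in edgeR.

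The same order of libraries held in other peptide genes. AttA, an attacin, stood at 231, 28.7, 4.603, 928 and 519 CPM in overexpression heads and at 3.33, 2.71, 1.65, 2.12 and 2.71 CPM in controls, with a log2 fold change of 7.09 ± 1.23. Mtk, which encodes the antifungal and antibacterial metchnikowin, stood at 209.8, 50.7, 5.89, 794 and 389.9 CPM against 6.70, 4.63, 3.32, 2.43 and 4.13 CPM, with a log2 fold change of 6.10 ± 1.06. The cecropin gene CecA2 stood at 49.9, 7.98, 0.192, 200.1 and 100.4 CPM against 0.265, 0.0238, 0.111, 0.342 and 0.133 CPM, with a log2 fold change of 8.61 ± 1.52. In Mtk and CecA2 library 3 fell within the range of the controls, and libraries 1, 2, 4 and 5 lay above it. DptB, the second diptericin, rose by 8.02 ± 1.43 on the log2 scale. Def, which encodes defensin, was the 1 peptide gene of the list not called, and was singled out for that: it stood at 15.5, 6.87, 12.1, 31.6 and 12.3 CPM against 13.6, 5.46, 17.9, 9.91 and 13.7 CPM, and the groups overlapped. Attacin, cecropin and diptericin genes have close copies. Reads without a unique alignment, 4.82% to 6.13% of each library's total, were kept apart from genes and left out, so the values of single copies are uncertain.

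Summed over the 14 genes, antimicrobial peptide transcripts made up 1933, 250.8, 61.8, 7886 and 3690 CPM in overexpression libraries 1 to 5. The driver controls held 38.9 to 61.5 CPM and the UAS-bchs::HA/+ heads 47.4 to 75.8 CPM. Overexpression library 3 thus lay just above the driver controls and within the range of the UAS controls, and the other 4 spread over more than an order of magnitude above both. Without overexpression library 4 the log2 fold changes were lower, at 8.80 for DptA, 7.22 for DptB, 6.30 for AttA, 5.29 for Mtk and 7.77 for CecA2, and 13 genes were called whichever library was left out. With limma-voom 4 of the 14 genes passed, and DptA (adjusted p = 0.379), DptB (0.127) and CecA2 (0.442) did not.

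**Figure D2:**
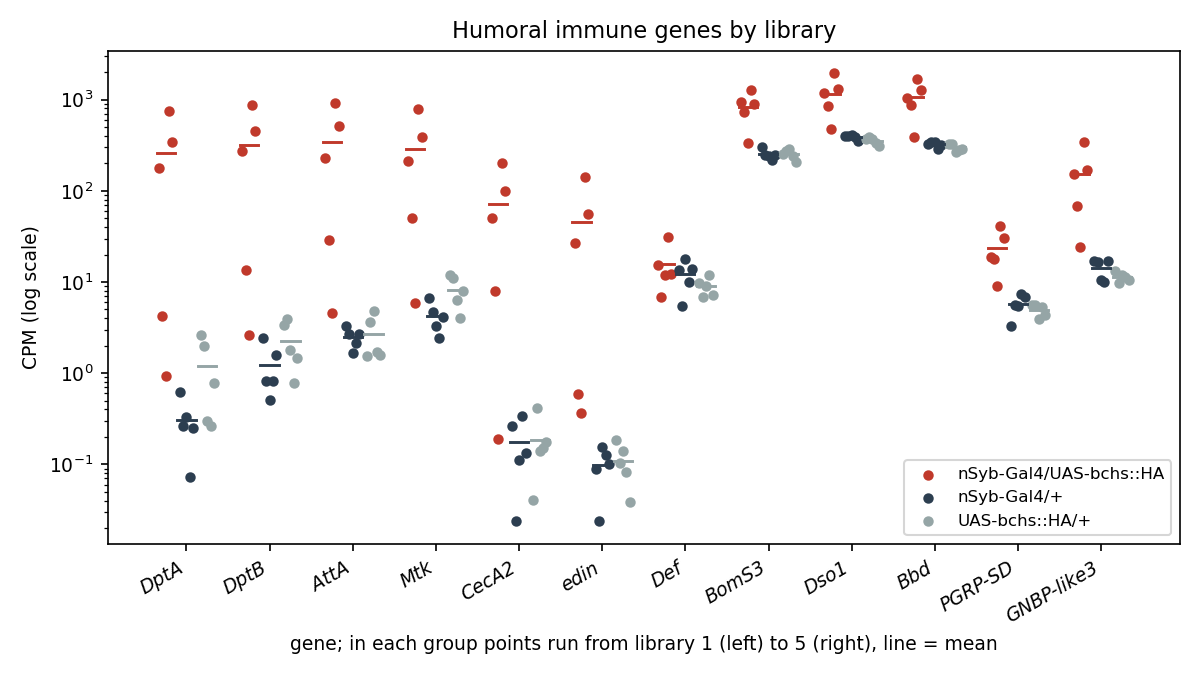
CPM on a log scale of 12 humoral immune genes in each library of the 3 genotypes; points are libraries 1 to 5 from left to right and lines are group means. Overexpression library 4 is highest and library 3 lowest in most of these genes, at 757 and 0.940 CPM for DptA, while Def overlaps between the groups.

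Bomanins, Baramicins and Daisho peptides are short secreted peptides that are known chiefly as Toll targets. In a list of their genes with IBIN and edin added, 15 of 18 were called higher. The median log2 fold change was 1.82. BomS3, a short Bomanin, stood at 938, 738, 337, 1273 and 897 CPM in overexpression libraries 1 to 5 and at 302, 245, 239.8, 218 and 247 CPM in driver controls. All 5 overexpression libraries lay above all 5 controls, library 3 again lowest and library 4 highest, for a log2 fold change of 1.74 ± 0.25. Dso1, a Daisho peptide, was 1155 ± 552 CPM against 389 ± 23.4 CPM, with a log2 fold change of 1.57. Bbd (Bombardier), which is needed for Bomanins to accumulate in the blood, was 1057 ± 485 CPM against 323 ± 23.5 CPM, with a log2 fold change of 1.71. Dso1, Bbd and BomS3 were 3 of the 4 called genes with the largest gain in CPM. BomBc3 rose by 2.21 ± 0.28 on the log2 scale, with an adjusted p of 0.000166.

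Summed over the 18 genes, these peptides stood at 4867, 3561, 1727, 7002 and 4668 CPM in overexpression libraries 1 to 5 and at 1340 to 1613 CPM in the driver controls. Here every overexpression library lay above the driver controls, and the highest was 4.05 times the lowest. IBIN and edin, which are also induced by infection, moved much further than the Bomanins. IBIN stood at 31.9, 6.78, 0.134, 139.7 and 40.0 CPM in overexpression heads and at no more than 0.119 CPM in any driver control, with a log2 fold change of 9.54 (8.39 without overexpression library 4). edin stood at 26.8, 0.590, 0.364, 141 and 56.3 CPM in overexpression heads and at no more than 0.156 CPM in any driver control, with a log2 fold change of 8.77 (7.68 without library 4). With limma-voom neither passed (adjusted p = 0.428 for IBIN and 0.415 for edin).

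Among genes that recognise bacterial peptidoglycan or fungal glucan, 8 of 13 were called higher and none lower, with a median of 0.24. GNBP-like3 stood at 153, 68.5, 24.3, 345 and 169 CPM against 17.0, 16.4, 10.5, 10.1 and 16.9 CPM. The groups did not overlap, and the log2 fold change was 3.42 ± 0.55. PGRP-SD, a secreted peptidoglycan sensor, was 23.4 ± 12.3 CPM against 5.74 ± 1.61 CPM, with a log2 fold change of 2.02. PGRP-LF, a membrane protein that holds the Imd receptor in check, rose by 0.59 ± 0.15 on the log2 scale. The count fell to 4 without overexpression library 4 or 5 or without driver control 1, 2 or 3, and to 5 without overexpression library 1.

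The signalling components moved little beside their targets. Of 15 Imd pathway genes, Rel, which encodes Relish, was called higher and trbd, a deubiquitinase that limits the pathway, was called lower, and the median was 0.02. Rel stood at 186, 166, 113, 319.5 and 232 CPM against 124, 110.1, 138, 123.3 and 127 CPM, with library 3 inside the range of the controls, for a log2 fold change of 0.71 and an adjusted p of 0.0313. The call on Rel was lost without overexpression library 4 (adjusted p = 0.0706) or 5 (0.0787) or without driver control 1, 2, 4 or 5 (0.0569 to 0.0687). That on trbd held without UAS control 5 or driver control 4 or 5 and was lost without any other single library (0.0501 to 0.114). Of 15 Toll pathway genes, 4 were called higher (nec, cact, Dif and Hayan) and 1 lower (Myd88, the receptor's adaptor), with a median of 0.14. The call on Hayan, a protease of melanisation and Toll activation, was lost without overexpression library 5, without driver control 1, 2, 3 or 5, or without UAS control 2, 3, 4 or 5 (adjusted p 0.0503 to 0.0806). That on Myd88 was lost without overexpression library 1, 2, 4 or 5, driver control 2, 3 or 4, or UAS control 2 or 3. cact, which encodes the inhibitor of Dif and Dorsal and is itself a Toll target, was 261 ± 54.5 CPM against 201 ± 7.54 CPM, a log2 fold change of 0.38 ± 0.10. nec, a serpin that restrains Toll activation, was 319.6 ± 68.2 CPM against 222 ± 8.16 CPM, a log2 fold change of 0.52 ± 0.11.

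No blood cell marker was called: the 7 hemocyte markers summed to 464 to 624.8 CPM in overexpression heads and to 578 to 654 CPM in controls. In a wider list of hemocyte and melanisation genes 4 of 24 were called higher. NimC4, a receptor for apoptotic cells on phagocytes and glia, stood at 40.7, 58.7, 42.8, 33.8 and 45.7 CPM against 18.1, 20.6, 15.7, 12.4 and 24.5 CPM. Its groups did not overlap, and the log2 fold change was 1.28 ± 0.18. Of 13 genes of the Turandot, Tep and JAK/STAT list, TotX and TotM were called lower and none higher (4 lower without overexpression library 5). TotX, a secreted stress peptide, was 8.94 ± 1.27 CPM against 32.6 ± 7.01 CPM in driver controls, with a log2 fold change of -1.87 ± 0.24. UAS-bchs::HA/+ heads held 9.93 ± 3.72 CPM of TotX, close to the overexpression heads.

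**Figure D3:**
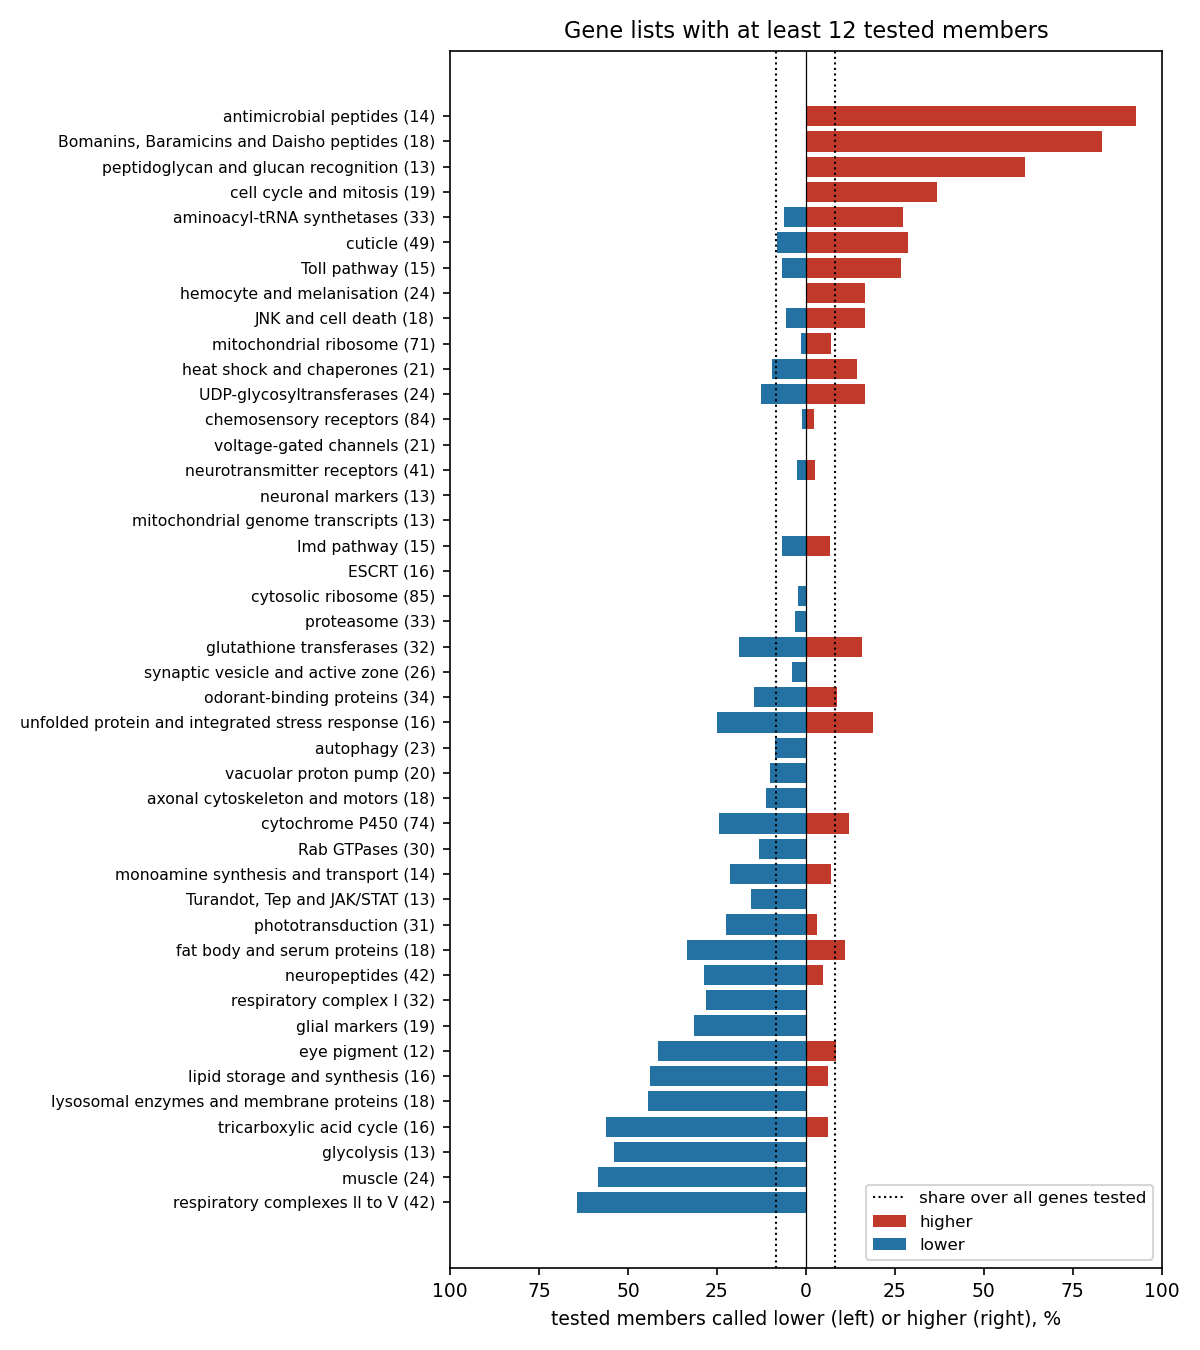
Share of the tested members of each gene list called higher (right) or lower (left) at an adjusted p under 0.05, for lists with at least 12 tested members, whose number is in brackets; dotted lines mark the 8.19% and 8.34% of all genes tested. Immune peptide lists lead on the right. On the left the largest shares are those of complexes II to V (27 of 42), muscle (14 of 24), the tricarboxylic acid cycle (9 of 16) and glycolysis (7 of 13).

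Genes of energy metabolism were lower by small amounts. Of 42 nuclear genes of respiratory complexes II to V, 27 were called lower and none higher, with a median log2 fold change of -0.23. ATPsynbeta, the catalytic subunit of ATP synthase, stood at 2382, 2403, 2399, 2145 and 2219 CPM in overexpression libraries 1 to 5 and at 2844, 2695, 2834, 2721 and 3189 CPM in driver controls. Every overexpression library lay below every control, library 4 lowest, for a log2 fold change of -0.31 ± 0.06. Cyt-c1, a subunit of complex III, was 542 ± 21.1 CPM against 635 ± 49.1 CPM, a log2 fold change of -0.23. Of 32 complex I genes 9 were called lower, with a median of -0.18; all 32 had a fitted change below 0. ND-B17.2, a subunit of complex I, was 161 ± 2.19 CPM against 187 ± 9.79 CPM, a log2 fold change of -0.21 ± 0.05.

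Both counts shifted when single libraries were left out, for complex I in 10 of 15 such fits, and the medians shifted less. For complexes II to V, 10 genes were called without overexpression library 4, 11 without library 5, 17 without library 2 and 15 without driver control 5, while the median stayed between -0.26 and -0.18. For complex I, 1 gene was called without overexpression library 4 or without library 5, 4 without library 1 or 2, 3 without driver control 5, and 5 without driver control 1 or 4 or without UAS control 2, 3 or 4; the median stayed between -0.21 and -0.13. None of the 13 mitochondrial genome transcripts was called, with a median of 0.02 that became -0.16 without driver control 5. Of 71 mitochondrial ribosome genes 5 were called higher and 1 lower, with a median of 0.01. The higher count was 2 without driver control 2, 3 or 4 and 3 without overexpression library 1, 2 or 4, and the lower one was 0 without any overexpression library, driver control 5, or UAS control 2, 3 or 4.

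The pathways that feed the respiratory chain were lower as well. In the tricarboxylic acid cycle 9 of 16 genes were called lower and 1, ScsbetaG, higher, with a median of -0.19. The call on ScsbetaG was lost without overexpression library 1, 2 or 5 or driver control 1, 3 or 4 (adjusted p 0.0598 to 0.101). muc, the acetyltransferase subunit of pyruvate dehydrogenase, was 461 ± 38.9 CPM against 569 ± 19.3 CPM, a log2 fold change of -0.30 ± 0.06. kdn, citrate synthase, was 1732 ± 119.5 CPM against 2076 ± 74.4 CPM, a log2 fold change of -0.26 ± 0.05. In glycolysis 7 of 13 genes were called lower, with a median of -0.18. Gpdh1, the glycerol-3-phosphate dehydrogenase that links glycolysis to fat synthesis and mitochondrial shuttling, was 1071 ± 87.5 CPM against 1496 ± 68.5 CPM, a log2 fold change of -0.48 ± 0.07. The glycolytic count fell to 4 without overexpression library 1, 4 or 5, without driver control 3 or 5, or without UAS control 2.

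Muscle and fat body transcripts were lower in the same heads. Of 24 muscle genes 14 were called lower and none higher, with a median of -0.26. Mhc, the muscle myosin heavy chain, stood at 3538, 3935, 3950, 2706 and 3407 CPM in overexpression libraries 1 to 5 and at 4645, 4916, 5180, 4317 and 4871 CPM in driver controls. The groups did not overlap, library 4 was lowest, and the log2 fold change was -0.45 ± 0.09. SERCA, the calcium pump of the sarcoplasmic reticulum, was 3299 ± 392.3 CPM against 4319 ± 134 CPM, a log2 fold change of -0.39. The 6 muscle markers summed to 9005 to 11692 CPM in overexpression heads and 12733 to 13905 CPM in controls. Muscle is rich in respiratory transcripts, and the part of its lower level in the counts of energy metabolism was not tested.

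Of 18 fat body and serum protein genes 6 were called lower and 2 higher (Lsp1gamma and Tsf1), with a median of -0.56. The higher count was 0 without any driver control or without overexpression library 1, 2 or 4, and 1 without overexpression library 5 or any UAS control. apolpp, the lipoprotein that carries lipids in the blood, stood at 2572, 3017, 2863, 1719 and 2952 CPM against 3834, 4530, 5560, 4953 and 4552 CPM. All overexpression libraries lay below all controls, library 4 lowest, for a log2 fold change of -0.84 ± 0.16. The yolk protein gene Yp2, which is female-biased and made in fat body, stood at 6678, 6153, 11387, 4484 and 7539 CPM against 13139, 11680, 12316, 20460 and 12966 CPM, with a log2 fold change of -0.96 ± 0.25 and an adjusted p of 0.0168. fit, a female-biased satiety signal of the head fat body, was 26.4 ± 16.1 CPM against 109 ± 74.6 CPM, with a log2 fold change of -2.04 that became -1.52 without driver control 4 and -2.47 without overexpression library 3. The dosage compensation RNA lncRNA:roX1, which is made in males, was 400.5 ± 60.6 CPM against 407 ± 67.4 CPM (adjusted p = 0.952). AkhR, the receptor of adipokinetic hormone, was 44.1 ± 3.25 CPM against 70.0 ± 9.36 CPM, a log2 fold change of -0.67 ± 0.09.

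Against this direction, the iron transporter gene Tsf1, which is also induced by infection, was 2080 ± 882 CPM against 1153 ± 226 CPM, the largest gain in CPM among called genes. Its adjusted p was 0.0492, and the call was lost without any one library other than overexpression library 3 (0.0513 to 0.129). The 7 fat body markers summed to 15492 to 35193 CPM in overexpression heads and to 36025 to 56200 CPM in controls, and 3 of the 7 were called lower. They include the yolk protein genes Yp1 and Yp2, so the sum depends in part on female-biased RNA, and the labels give no sex. The immune peptide genes above, which fat body can make, rose in heads whose summed fat body markers were lower, and the part of tissue amounts in either was not tested. The gene listed as FBgn0040813, for which the tables used gave no name, was among the 4 largest losses in CPM, at 2106 ± 229 against 3527 ± 599 CPM. Among 16 genes of lipid storage and synthesis 7 were called lower and 1 higher, with a median of -0.15. SREBP, the transcription factor of lipid synthesis, was 267 ± 9.61 CPM against 327 ± 13.4 CPM, a log2 fold change of -0.30. Dgat2, an enzyme of triglyceride synthesis, was the higher one, at 9.30 ± 2.54 against 5.15 ± 1.13 CPM. The count of lower lipid genes fell to 3 without overexpression library 1 or driver control 3, and to 4 without overexpression library 2 or 4 or driver control 4.

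**Figure D4:**
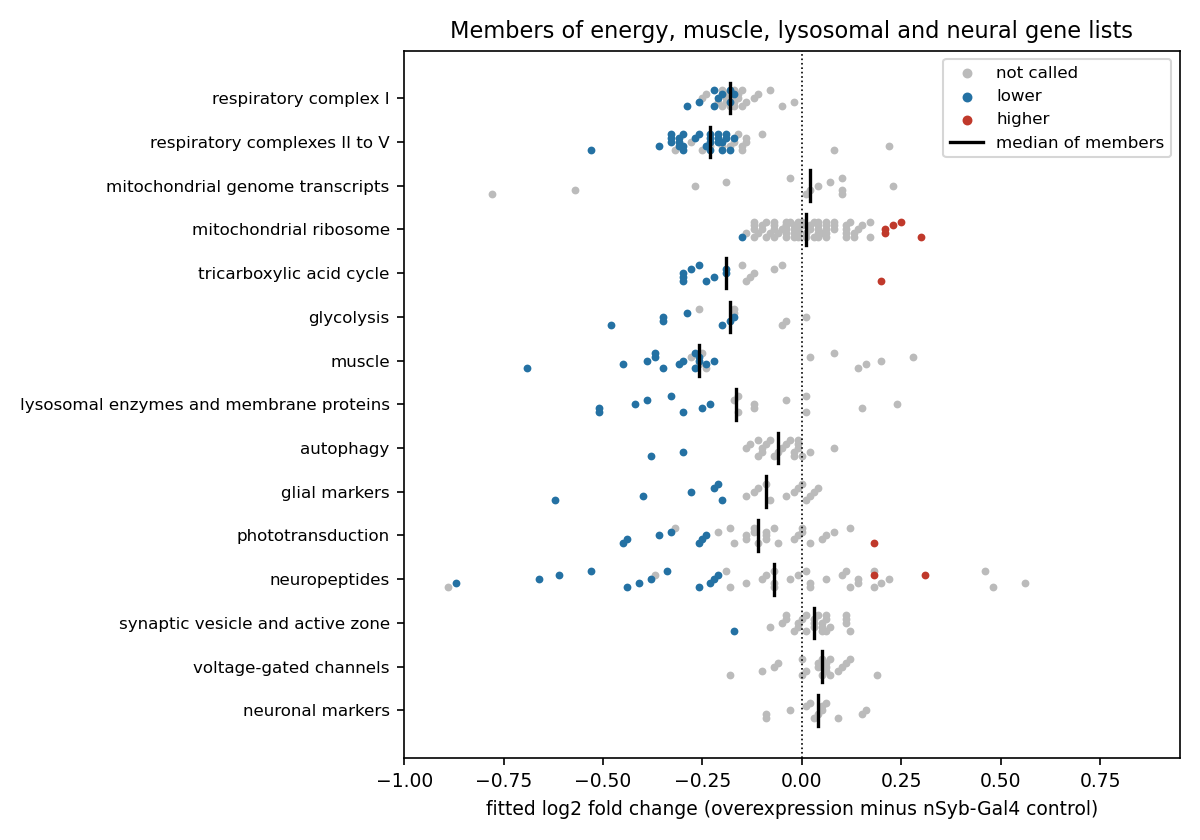
Fitted log2 fold change of each tested member of 15 gene lists, coloured by its call, with the median of each list as a black line. Medians lie at -0.23 for complexes II to V and -0.26 for muscle, and at 0.03 for synaptic vesicle genes and 0.05 for voltage-gated channels.

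Few genes of synaptic and electrical function were called. Of 26 genes of synaptic vesicles and the active zone 1 was called, Synj, which recycles vesicles, at a log2 fold change of -0.17. The Synj call was lost without overexpression library 1, 4 or 5 or without driver control 1, 2, 3 or 5 (adjusted p 0.0509 to 0.0757). None of 21 voltage-gated channel genes, none of 13 neuronal markers and none of 7 genes of glial engulfment was called, with medians of 0.05, 0.04 and -0.02. Of 41 neurotransmitter receptor genes 1 was called higher (5-HT1B, a serotonin receptor) and 1 lower (5-HT2A, another); 2 were called higher without overexpression library 1, driver control 3 or UAS control 5. Of 84 chemosensory receptor genes 2 were called higher and 1 lower. The higher count was 1 without overexpression library 2 or 3 or driver control 1 or 4, and the lower one 2 without overexpression library 4, driver control 2, 4 or 5, or any UAS control. Syt1, the calcium sensor of vesicle release, was 1058 ± 71.8 CPM against 1038 ± 145 CPM (log2 fold change 0.03, adjusted p = 0.933). Driver control 5 was the low library in Syt1, at 786 CPM.

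Neuropeptide genes were called more often than genes of synapses and channels, with 12 of 42 called lower and 2 higher (Hug and Crz). The call on Hug was lost without overexpression library 1, 4 or 5 or driver control 2 or 4, and that on Crz without overexpression library 1, 2, 3 or 4 or driver control 2, 3 or 4. Without UAS control 3, 4 or 5, 4 neuropeptide genes were called higher. Pdf, the peptide of the clock neurons, stood at 30.6, 30.1, 30.5, 29.1 and 29.6 CPM in overexpression libraries 1 to 5 and at 41.4, 39.2, 39.2, 39.0 and 44.9 CPM in driver controls. Both groups were narrow and did not overlap, and the log2 fold change was -0.44 ± 0.05 with an adjusted p of 7.76e-06. Ms (myosuppressin) was 68.4 ± 4.07 CPM against 99.0 ± 6.60 CPM, a log2 fold change of -0.53. Orcokinin was 14.03 ± 2.12 CPM against 21.4 ± 2.20 CPM, a log2 fold change of -0.61. Ilp5, an insulin-like peptide of the brain's insulin-producing cells, was 14.5 ± 2.44 CPM against 23.0 ± 3.84 CPM, a log2 fold change of -0.66. The median over the 42 genes was -0.07. Of 14 genes of monoamine synthesis and transport 3 were called lower and 1 higher, the latter lost without overexpression library 4 or driver control 2. Pu, the enzyme that starts both pterin eye pigments and the cofactor of amine synthesis, was 729 ± 69.5 CPM against 997 ± 109.6 CPM, a log2 fold change of -0.45. Of 9 clock genes 1 was called higher and 1 lower, and of 8 activity-regulated genes 1 was called higher. The higher clock call was lost without overexpression library 3 or 5 or driver control 3, and the activity-regulated one without overexpression library 4 or 5 or driver control 1, 2 or 3. Of 18 genes of the axonal cytoskeleton and its motors 2 were called lower, and 1 without overexpression library 1, 2 or 5 or driver control 3 or 5.

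In the eye, 7 of 31 phototransduction genes were called lower and 1 higher, with a median of -0.11. The higher call was lost without overexpression library 2 or 3 or driver control 1, 2 or 4, and 2 were called higher without driver control 5. chp, the photoreceptor adhesion protein chaoptin, was 1809 ± 152 CPM against 2451 ± 192 CPM, a log2 fold change of -0.44 ± 0.07. ninaA, a chaperone of rhodopsin, was 72.9 ± 1.93 CPM against 93.5 ± 10.03 CPM, a log2 fold change of -0.36. Of 12 eye pigment genes 5 were called lower, and w alone was called higher. bw, the partner of w in pigment precursor transport, stood at 36.5, 38.7, 39.1, 37.2 and 38.0 CPM against 53.5, 57.3, 60.2, 55.1 and 64.3 CPM. All overexpression libraries lay below all controls, for a log2 fold change of -0.62 ± 0.06. cd, an enzyme of brown pigment synthesis, was 12.1 ± 0.949 CPM against 19.1 ± 1.59 CPM, a log2 fold change of -0.66.

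Of 19 glial markers 6 were called lower and none higher, with a median of -0.09. Eaat2, a glial amino acid transporter, stood at 444, 463, 469, 459 and 463 CPM against 555, 548, 572, 545 and 562 CPM. The groups lay clearly apart at a log2 fold change of -0.28 ± 0.05. Tret1-1, a trehalose carrier of the glia around the brain, was 289 ± 19.5 CPM against 381 ± 9.55 CPM, a log2 fold change of -0.40. Indy, a citrate carrier found also in fat body, was 160.4 ± 15.9 CPM against 246 ± 11.3 CPM, a log2 fold change of -0.62 ± 0.07.

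The machinery in which Bchs is known to act was lower in its lysosomal part, and its other lists held 0 to 13.3% lower calls, beside 8.34% of all genes tested. Of 18 genes of lysosomal enzymes and membrane proteins 8 were called lower and none higher, with a median of -0.16. spin (spinster), a lysosomal efflux carrier, stood at 108, 102, 130.5, 109 and 108 CPM against 147, 151, 176, 168 and 153 CPM. The groups did not overlap, and the log2 fold change was -0.51 ± 0.07. CtsF, a cathepsin, was 334 ± 11.1 CPM against 421 ± 17.7 CPM, a log2 fold change of -0.33. Cln3, whose human counterpart is mutated in Batten disease, was 15.5 ± 0.505 CPM against 22.1 ± 2.63 CPM, a log2 fold change of -0.51. Sap-r, the saposin precursor of sphingolipid breakdown, was 846 ± 52.0 CPM against 1038 ± 52.0 CPM, a log2 fold change of -0.30.

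Of 23 autophagy genes 2 were called lower and none higher, with a median of -0.06. Atg9, the lipid scramblase of growing autophagosomes, was 40.4 ± 1.44 CPM against 52.6 ± 3.18 CPM, a log2 fold change of -0.38 ± 0.06. Atg2, the lipid transfer protein that works with it, was 79.6 ± 4.51 CPM against 97.9 ± 6.004 CPM, a log2 fold change of -0.30 ± 0.07. ref(2)P, the fly p62 that binds ubiquitinated cargo, stood at 303 ± 9.63 against 321 ± 5.50 CPM (log2 fold change -0.08, adjusted p = 0.313) and was picked out after its values were seen. Of 20 genes of the vacuolar proton pump 2 were called lower, of 30 Rab GTPase genes 4, of 33 proteasome genes 1 and of 16 ESCRT genes none, and none was called higher in these lists. The proton pump count was 1 without any single library other than UAS control 5, driver control 4 or overexpression library 2 or 3. The proteasome count was 5 without driver control 1, 2 without driver control 3, and 0 without any overexpression library, driver control 4 or 5, or UAS control 2, 3 or 4. Rab32, which serves lysosome-related organelles such as pigment granules, was 448 ± 13.8 CPM against 580.3 ± 42.5 CPM, a log2 fold change of -0.37 ± 0.06. rg, a BEACH domain relative of bchs, stood at 2.32 ± 1.10 against 2.16 ± 0.468 CPM (adjusted p = 0.884). Iml1, a subunit of the GATOR1 complex that restrains TORC1, was among the 4 lower genes of smallest p. It stood at 63.7, 72.1, 68.7, 73.2 and 72.2 CPM against 118, 123.2, 130.4, 124 and 125 CPM, with no overlap and a log2 fold change of -0.83 ± 0.05; UAS-bchs::HA/+ heads held 122 ± 7.46 CPM.

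Stress response genes were called in both directions, and some of these calls were not stable. Of 16 genes of the unfolded protein and integrated stress responses 3 were called higher and 4 lower, with a median of -0.05. The higher count was 1 without overexpression library 1, 4 or 5, driver control 1, 2 or 3, or UAS control 2 or 4, where Calr and Gp93, both chaperones of the endoplasmic reticulum, lost their calls. Hsc70-3, the chaperone BiP of the endoplasmic reticulum, was 490 ± 26.8 CPM against 406 ± 40.1 CPM, a log2 fold change of 0.27, while Cnx99A, a calnexin, was 266 ± 14.1 CPM against 317 ± 19.2 CPM, a log2 fold change of -0.25. PEK, the kinase PERK, was 48.7 ± 0.927 CPM against 56.0 ± 2.56 CPM, a log2 fold change of -0.20. Of 21 heat shock and chaperone genes 3 were called higher and 2 lower. Their fitted log2 fold changes ran from -0.49 to 3.22, the highest being that of an Hsp70 gene that was called whichever library was left out. Of 18 genes of JNK signalling and cell death 3 were called higher and 1 lower. Without overexpression library 4, 1 was called higher and none lower, and the lower call was also lost without overexpression library 2 or 5 or driver control 1 or 2. Dronc, the initiator caspase, was 19.9 ± 4.02 CPM against 14.04 ± 0.661 CPM, a log2 fold change of 0.51 ± 0.10.

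Synthetase and cell cycle genes were called higher more often than lower. Of 33 aminoacyl-tRNA synthetase genes 9 were called higher and 2 lower, with a median of 0.06. AspRS was 68.0 ± 4.87 CPM against 54.1 ± 2.08 CPM, a log2 fold change of 0.33, and the mitochondrial SerRS-m was 13.4 ± 0.938 CPM against 17.6 ± 1.10 CPM, a log2 fold change of -0.39. The synthetase count fell to 5 without overexpression library 2 or 5 or without driver control 1. Of 85 cytosolic ribosome genes 2 were called lower and none higher, with a median of -0.08. That count was 0 without any overexpression library, driver control 4 or 5, or UAS control 2, 3 or 4, and 1 without driver control 1 or 3. Of 19 cell cycle genes 7 were called higher and none lower, all at low levels apart from ncd. Mcm2, part of the replicative helicase, was 3.75 ± 0.434 CPM against 2.43 ± 0.208 CPM, a log2 fold change of 0.62 ± 0.10. CycB, the mitotic cyclin, was 0.902 ± 0.179 CPM against 0.371 ± 0.0919 CPM, a log2 fold change of 1.27 ± 0.22. None of 4 histone genes, of 6 gut enzyme genes or of 3 male-biased genes was called, and of 5 female-biased genes 2 were called lower (4 without overexpression library 3 or UAS control 1 or 5).

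Cuticle and detoxification genes were called often and in both directions. Of 49 cuticle genes 14 were called higher and 4 lower, with a median of 0.12, and the 4 markers of cuticle epidermis summed to 227 to 375 CPM in overexpression heads and to 172 to 195 CPM in controls. One of the 3 tested markers was called higher. The count of lower cuticle genes was 2 without overexpression library 2 or 5 or driver control 3 or 5. Cpr97Ea was 123.4 ± 14.7 CPM against 80.0 ± 4.26 CPM, a log2 fold change of 0.62 ± 0.08. Of 74 cytochrome P450 genes 9 were called higher and 18 lower, of 32 glutathione transferase genes 5 and 6, of 24 UDP-glycosyltransferase genes 4 and 3, and of 34 odorant-binding protein genes 3 and 5. The higher odorant-binding count was 1 without overexpression library 1 or 4 or driver control 2 or 4. Cyp6t1 was 11.7 ± 1.31 CPM against 35.7 ± 4.66 CPM, a log2 fold change of -1.60 ± 0.15. Cyp6a23 was 43.6 ± 7.46 CPM against 20.0 ± 0.650 CPM, a log2 fold change of 1.13 ± 0.09, and UAS-bchs::HA/+ heads held 44.2 ± 2.90 CPM. Obp99b was 35.2 ± 12.9 CPM against 171 ± 104.1 CPM in driver controls, a log2 fold change of -2.28, and UAS-bchs::HA/+ heads held 15.7 ± 3.13 CPM.

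A separate set of genes differed sharply with little spread inside each group. The smallest adjusted p of the comparison, 1.79e-16, belonged to ncd, a minus-end kinesin of the meiotic and mitotic spindle on chromosome arm 3R (29804290 to 29807127). It stood at 32.0, 33.0, 32.5, 33.5 and 31.9 CPM in overexpression libraries 1 to 5, at 3.35, 3.35, 3.63, 3.26 and 3.61 CPM in driver controls and at 20.9, 20.3, 18.3, 22.6 and 20.4 CPM in UAS-bchs::HA/+ libraries. Each group was tight and apart from the others, the driver control being low; the log2 fold change was 3.24 ± 0.06 against the driver control and 0.67 against the UAS control. 2 annotated genes overlap ncd, and whether reads were counted by strand is not given in the sources used here. CG6592, on 3L, stood at 2.04, 1.90, 2.49, 2.23 and 1.74 CPM against 0.0661, 0.0238, 0.0669, 0.0360 and 0.0333 CPM in driver controls, where no library had more than 3 counts, and at 1.30 ± 0.174 CPM in UAS-bchs::HA/+ heads (adjusted p against the driver control 4.32e-11).

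Several other genes low in driver controls were neighbours on chromosome arm 3R, not all of them with narrow groups. CG9624 (14228018 to 14229145), CG43291 (14234984 to 14244677), CG9616 (14244804 to 14245471) and CG43179 (14256108 to 14256930) lie within one stretch, and of the 10 other genes tested within 50 kb of CG43291, 7 were called changed. CG43291 stood at 4.37, 4.35, 4.32, 5.74 and 4.99 CPM in overexpression heads, at 0.0441, 0.119, 0.111, 0.144 and 0.0832 CPM in driver controls and at 2.73 ± 0.366 CPM in UAS-bchs::HA/+ heads. CG9616 stood at 5.53 ± 1.02, 0.744 ± 0.146 and 1.96 ± 0.220 CPM in the same order, and CG43179 at 1.42 ± 0.714, 0.0140 ± 0.0211 and 0.344 ± 0.130 CPM. CG9624 had no count in any driver control and 0.407 ± 0.152 CPM in overexpression heads, which puts it at least 6.6-fold higher against a floor of 3 counts per library. All 4 had a lower mean in the genotype without the transgene than in both genotypes with it, and CG9624, CG43291 and CG43179 were at or near 0 there. CG9616 and CG43179 were singled out after their values were seen, for their place beside CG43291. CG9698, elsewhere on 3R, also had no count in any driver control; it stood at 0.604 ± 0.0546 CPM in overexpression heads, at least 9.8-fold higher, and at 0.297 ± 0.109 CPM in UAS-bchs::HA/+ heads.

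Other genes were low in overexpression heads beside the driver control, hoka and GILT3 among them also beside the UAS control. hoka, which encodes a protein of the gut's septate junctions (3L, 4898900 to 4900869), stood at 0.158, 0.109, 0.115, 0.0989 and 0.111 CPM in overexpression libraries 1 to 5, at 2.34, 3.52, 2.41, 4.05 and 3.43 CPM in driver controls and at 2.60 ± 0.445 CPM in UAS-bchs::HA/+ heads. No overexpression library came near a control, and the log2 fold change was -4.71 ± 0.22 with an adjusted p of 3.76e-10. GILT3, a thiol reductase, stood at 0.732, 1.44, 0.921, 1.37 and 0.890 CPM against 7.43, 7.60, 7.47, 7.07 and 9.22 CPM and at 9.002 ± 1.09 CPM in UAS-bchs::HA/+ heads, a log2 fold change of -2.86 ± 0.15 against the driver control. The neighbouring genes CG42821 and CG42822 on 3R stood at 1.89 ± 0.286 and 0.0626 ± 0.0429 CPM against 7.36 ± 1.15 and 0.661 ± 0.110 CPM in driver controls. lncRNA:CR46123 had no count in any overexpression library and 0.743 ± 0.285 CPM in driver controls, at least 12.9-fold lower in overexpression heads. GstD6, a glutathione transferase, was 0.103 ± 0.0177 CPM against 0.481 ± 0.0918 CPM, a log2 fold change of -2.19. The genotypes may also differ at sites besides driver and transgene, which the labels do not describe, so the transgene's product and such differences cannot be told apart for any single gene.

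**Figure D5:**
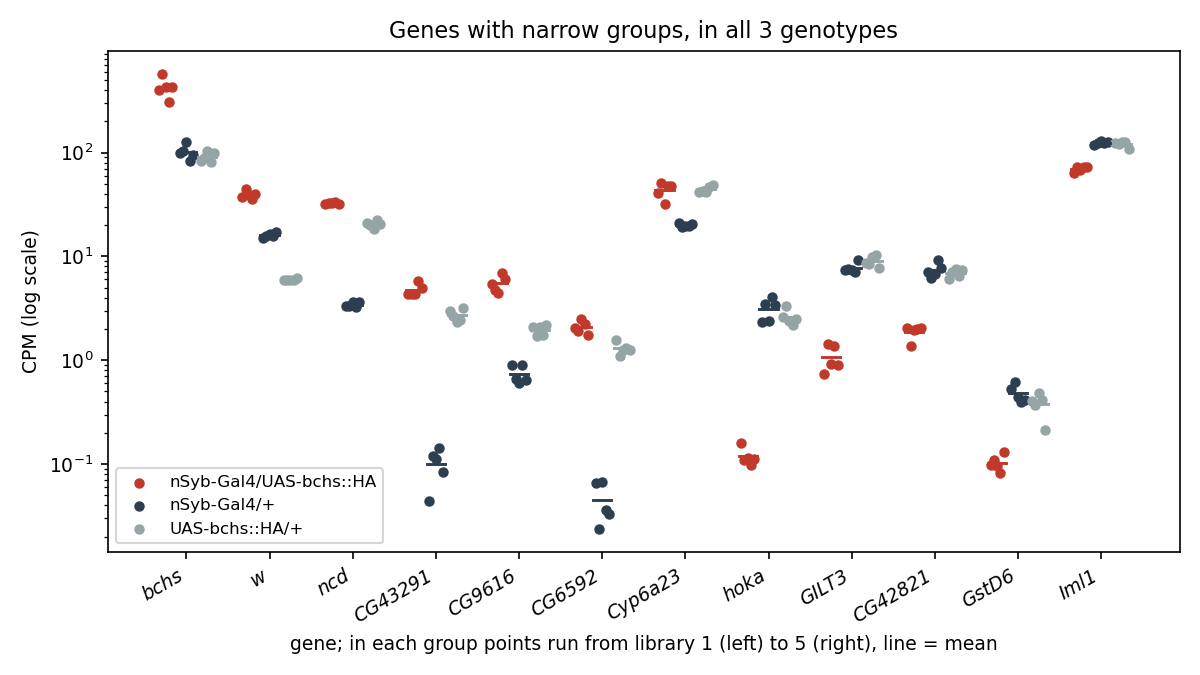
CPM on a log scale of bchs, w and 10 genes with narrow groups in each library of the 3 genotypes; points are libraries 1 to 5 from left to right and lines are group means. ncd, CG43291, CG9616 and CG6592 are lowest in nSyb-Gal4/+ heads, and hoka, GILT3, CG42821 and GstD6 are lowest in overexpression heads, with hoka at 0.119 against 3.15 CPM in the driver control.

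Called genes were spread over the genome but not evenly over arms, lengths or levels. The share of tested genes called was 19.6% on 3R, 18.1% on 3L, 14.9% on 2L, 11.5% on X and 8.16% on chromosome 4, with 2R between 2L and 3L. With genes put into 4 equal classes by transcript length, it was 9.72% in the class with the longest transcripts and between 18.7% and 18.9% in the others. With 4 classes by mean CPM, in the highest class 13.2% were called lower and 4.23% higher, and in the lowest class 5.05% lower and 12.9% higher. Low genes thus made up more of the rises and abundant genes more of the falls; these shares are descriptions, and a class was not tested against another.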

How the data were processed

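RNA was prepared with the RNeasy Micro Kit and libraries with the TruSeq RNA v2 kit, per the labels' protocols. The deposited values are raw read counts per gene; STAR, HTSeq and the build BDGP6 are named in the submitters' processing notes, and versions, annotation release and strand setting are not given in the sources used here. Rows that name no gene, 9.02% to 10.5% of each library's total, were left out. In R 4.3.3, edgeR 4.0.16 was fitted to all 15 libraries of the neuron dataset (TMM scaling, filterByExpr, robust quasi-likelihood test), and overexpression was set against the driver control; standard errors follow from the F statistic. P-values were Benjamini-Hochberg adjusted over all genes tested, with calls at 0.05. The test was tested on simulated data. Symbols came from a separate list of gene names and coordinates from Ensembl's BDGP6.54 annotation, both by gene ID. Libraries were grouped by genotype label, and no 2 libraries of a group agreed within sampling noise. Genes were named by rule: bchs, w and nSyb, those of largest fold, smallest p or largest CPM difference, and up to 4 called members per list and direction; CG9616, CG43179, Def and ref(2)P were added after their values were seen. Members and lists were chosen with earlier results of these data known. Alternatives used other scalings, filters, libraries, a replicate block, a length term, DESeq2 1.42.0 and limma-voom (limma 3.58.1).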

Additional observations from a re-analysis of the deposited data

Results flagged for a closer look

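Of 209 sets of 5 libraries examined, 16 had a highest or lowest library separated from its nearest neighbour by more than 0.710 of the range (Dixon's 95% limit), where chance flags about 1 in 20. Driver control 5 accounted for 6 of them. Its mean log2(CPM + 1) over the mitochondrial genome transcripts was 6.71, the lowest of its group. In CPM it was low in Syt1 (786) and Dso1 (348) and high in Cyt-c1 (721), Dgat2 (7.16) and GILT3 (9.22). Driver control 4 was high in Yp2 (20460 CPM).

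Overexpression library 3 was high in spin (130.5 CPM) and stood apart in Cyp6t1 (14.04 CPM) and Hug (34.8 CPM). Library 4 was low in apolpp (1719 CPM) and stood apart in CG9698 (0.511 CPM). Library 2 stood apart in CG42821 (1.38 CPM) and Obp99b (12.6 CPM), and library 1 in Myd88 (40.8 CPM) and hoka (0.158 CPM). The cause of these separations was not tested.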

How the results depend on the processing

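The count of 1782 changed genes was between 1367 and 1883 when single libraries were left out, and 2035 with DESeq2. It was 969 (503 higher, 466 lower) at an adjusted p under 0.01 and 551 (375 and 176) at 1.5-fold or more; both select fewer genes by construction. bchs was called in every setting, at 1.95 to 2.18. With limma-voom 4 antimicrobial peptide genes were called, against 13. Complex I counts were 14 with DESeq2, 26 with a length term, 4 with the 10 libraries alone, 3 with a replicate block, 2 with upper quartile scaling and 1 to 11 without single libraries. Counts for complexes II to V were 11 with the block, 13 with upper quartile scaling and 10 to 30 without single libraries. The cause was not tested. Overexpression and driver control libraries of the same number deviated together with r of 0.40, 0.06, 0.07, 0.05 and 0.03. Only number 1 matched its own number best, so whether the numbers pair samples is not settled by this check. The block gave 1501 changed genes (778 higher, 723 lower) and 2.06 for bchs. Of 102 other named genes, 85 kept their side of the threshold throughout, no called gene reversed its direction, and 148 of 2441 fits lost a call. Genes not called could change sign, as Def did (0.37, and -0.05 without overexpression library 4). Other scalings shifted the median of all genes by at most 0.010. Levels near 0 rest on few counts.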
